A study of Homo sapiens with 2 samples.

Results

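The Hedgehog pathway was examined in VMRC-LCD cells, a human lung adenocarcinoma line with neuroendocrine (NE) differentiation, after knockdown of the long non-coding RNA *DRAIC*. The pathway was represented by 9 genes, namely the ligand genes *IHH*, *SHH* and *DHH*, the receptor gene *PTCH1*, the signal transducer gene *SMO*, the decoy receptor gene *HHIP* and the transcription factor genes *GLI1*, *GLI2* and *GLI3*. They were chosen by gene symbol among 17687 named genes, with the difference of *IHH* between the arrays already known, so that the differences of all 9 are given here as a description. The cells were transfected with si-*DRAIC*2, the siRNA no2 against *DRAIC*, or with the negative control siRNA si-NC, each at 20 nmol/L and with 72 h of incubation. Total RNA of each condition was measured on 1 Human Clariom S array. The differences thus have no replicate check and carry no p-value. Only 1 siRNA against *DRAIC* and 1 line were measured on arrays, and no transcript cluster was named *DRAIC*, so the knockdown could not be checked on these arrays. By RT-qPCR, the paper reported less *DRAIC* with this siRNA than with si-NC.

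Hedgehog ligands are secreted proteins that carry lipids and act on neighbouring cells. In the absence of ligand, PTCH1 keeps SMO inactive, and the GLI proteins are phosphorylated and cleaved or degraded. Binding of a ligand to PTCH1 releases SMO, which acts in the primary cilium, and GLI proteins then switch on target genes, among them *PTCH1*, *GLI1* and *HHIP*. *SHH* acts in lung branching and in many other organs, *IHH* in cartilage growth and in the gut epithelium, and *DHH* in the testis and peripheral nerves. In gut and lung, the ligand is commonly made by epithelial cells and received by the mesenchyme beneath them.

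The signal of a transcript cluster, the set of probes that reads a gene, is given on the log2 scale. Differences were taken as si-*DRAIC*2 minus si-NC on that scale, and genes beyond a linear fold change of 1.5 in either direction (a log2 difference of 0.58) are called higher or lower. Signals of different genes come from different probes and do not rank transcript amounts. For the signal that unexpressed genes give, 497 genes were taken from families that such a line is presumed not to express, namely beta-defensins, keratin-associated proteins and the receptors of smell (olfactory, vomeronasal, trace amine) and taste. Their mean signal over both arrays had a median of 3.83 and a 95th percentile of 6.06, called the silent level below. Over all 21448 transcript clusters the signals had a median of 6.99 in si-*DRAIC*2 and 7.03 in si-NC, and the difference had a median of −0.011 and an SD of 0.38. The line was described as an NE-differentiated lung adenocarcinoma line, and NE and epithelial markers were mostly well above the silent level. The 5 measured NE markers lay between 8.51 and 15.17 in mean signal, and *EPCAM* and *KRT8* lay at 15.92 and 16.14, whereas *KRT19* (5.04) lay below it. Of the lung adenocarcinoma markers, *NKX2-1* lay just above the silent level at 6.20, and *NAPSA* (3.35), *SFTPB* (4.58) and *SFTPC* (4.07) lay below it. The gut epithelium markers *CDX2* (11.46), *CDH17* (13.67) and *VIL1* (14.64) were well above it, and *CDX1* (4.52) was not. The 3 leukocyte and 4 endothelial markers measured were all below it. Of 6 fibroblast markers, *LUM* (10.68) and *COL1A2* (8.56) were above it, and no marker of any of these lists other than *CDH17* passed 1.5-fold.

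The data and the regulatory sequence of the 2 members with a clear signal are set side by side, since *IHH* had the largest difference of the 9 and *PTCH1* is the classical GLI target. Shown are the 250 bases before the RefSeq transcription start of *IHH* (GRCh38.p14, chr2:219060922-219061171, minus strand) and of 1 of the 5 annotated starts of *PTCH1* (chr9:95509267-95509516, minus strand), both in the direction of transcription. Capitals mark the GC box GGGCGG or its complement CCGCCC and, in *PTCH1*, also the GLI consensus TGGGTGGTC.
IHH: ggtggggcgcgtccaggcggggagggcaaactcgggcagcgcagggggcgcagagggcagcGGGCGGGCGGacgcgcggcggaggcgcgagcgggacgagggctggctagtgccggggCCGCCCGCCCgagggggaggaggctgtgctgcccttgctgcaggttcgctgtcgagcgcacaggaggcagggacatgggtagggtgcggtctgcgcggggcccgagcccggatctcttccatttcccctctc
PTCH1: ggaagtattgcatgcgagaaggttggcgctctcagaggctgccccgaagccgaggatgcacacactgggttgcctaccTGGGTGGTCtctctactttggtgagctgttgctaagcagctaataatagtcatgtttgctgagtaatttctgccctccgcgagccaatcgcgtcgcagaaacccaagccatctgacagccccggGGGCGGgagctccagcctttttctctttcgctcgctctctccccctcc
The windows searched ran from 250 bases before to 50 after each start, on both strands. The GLI consensus (TGGGTGGTC or GACCACCCA) was found in 1 of the 12 windows of the members, the *PTCH1* window shown, from 172 to 164 bases before the start. It was found in 83 of all 35116 RefSeq promoter windows (0.236%). The *IHH* window held no such match. It held 4 GC boxes before the start, which overlap in pairs, and 1 after it. Its 250 upstream bases had a GC content of 75.6%, and those of the *PTCH1* start shown had 57.2%. The other *PTCH1* starts ranged from 48% to 71.6%, and the starts of the other members searched from 44.4% (*SHH*) to 74.8% (*HHIP*). The gap between the 2 sequences shown thus depends on the *PTCH1* start picked, and a high GC content was not particular to *IHH*. A GC box is common, with at least 1 in 45.0% of all windows. Of the members, *GLI1* and *GLI3* were not searched. These matches describe the letters of the windows and were not tested as binding sites.

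*IHH* was the ligand gene with a clear signal. Its signal was 8.21 in si-*DRAIC*2 and 9.61 in si-NC, both above the silent level. The difference of −1.40 corresponds to a level 2.64-fold lower in si-*DRAIC*2. Counted from the lowest difference, *IHH* had rank 27 of 21448 transcript clusters and rank 9 of the 10724 clusters at or above the median signal. Of the 1602 clusters with a mean signal within 0.5 of that of *IHH*, 115 (7.18%) were lower by more than 1.5-fold and 5, *IHH* included, had a difference as low as that of *IHH*. In terms of position on the array, *IHH* lay at percentile 58.6 of all signals in si-*DRAIC*2 and at percentile 68.8 in si-NC. In a bulk sample, fewer cells with the transcript and less transcript per cell cannot be told apart.

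The other ligand genes had signals in the range of the presumed silent families. *SHH* had 4.43 in si-*DRAIC*2 and 4.83 in si-NC, a difference of −0.40. *DHH* had 4.46 in si-*DRAIC*2 and 4.62 in si-NC, a difference of −0.16. Neither passed 1.5-fold. Of the 497 presumed silent genes, 400 had a mean signal below that of *SHH* and 383 below that of *DHH*, so both sat in the upper part of that range without leaving it.

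**Figure D1:**
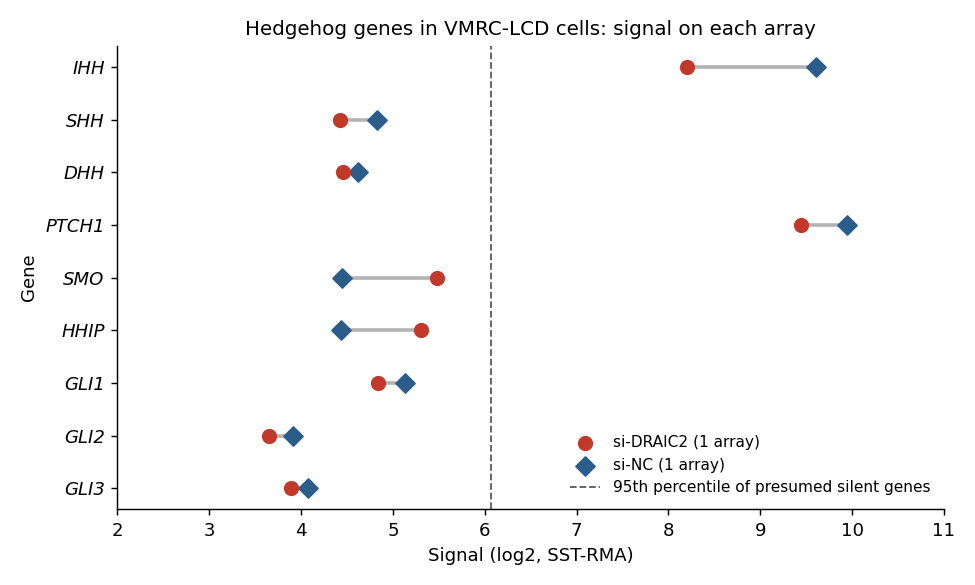
Signal (log2) of the 9 Hedgehog genes on the si-DRAIC2 array (red circles) and the si-NC array (blue diamonds), 1 array each, with the 95th percentile of presumed silent genes as a dashed line. *IHH* and *PTCH1* lie to the right of the line on both arrays, and the other 7 genes lie to its left.

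*PTCH1*, which encodes the ligand receptor, was the other member above the silent level. Its signal was 9.45 in si-*DRAIC*2 and 9.94 in si-NC. The difference of −0.49, or 1.41-fold lower, did not pass 1.5-fold. Of 1650 clusters within 0.5 of its mean signal, 153, *PTCH1* included, had a difference as low or lower, so that a shift of this size was frequent at this signal. Its direction was that of *IHH*. Of 81 genes with the GLI consensus in a promoter window, 41 were measured, of which 3 were higher and 3 lower by more than 1.5-fold (11.4% of all clusters passed), with a median difference of −0.028. Of the 29 above the silent level, 3 were higher and 1 lower (9.24% of all clusters above it passed), with a median of −0.11, against −0.011 over all clusters above it. Among these 29, which include *PTCH1* itself, 6 had a lower difference than *PTCH1*. Over all clusters, *PTCH1* had rank 2046 of 21448 from the lowest difference. Nothing is read from so small a count.

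*SMO*, the transducer that PTCH1 holds inactive, had a signal of 5.48 in si-*DRAIC*2 and 4.44 in si-NC. *HHIP*, a membrane protein that binds and sequesters the ligands, had 5.30 in si-*DRAIC*2 and 4.43 in si-NC. Both were nominally higher by more than 1.5-fold, *SMO* 2.06-fold (difference 1.04) and *HHIP* 1.83-fold (0.87), but both stayed below the silent level on either array. Among the 497 presumed silent genes, 3 had a difference as high as that of *SMO* and 6 as high as that of *HHIP*. Of 2778 clusters within 0.5 of the mean signal of *SMO*, 31, *SMO* included, had a difference as high. For *HHIP* these were 70 of 2894, *HHIP* included. When 32 was added to the linear signals of both arrays to damp dim ones, the differences were 0.52 for *SMO* and 0.42 for *HHIP*, and neither passed 1.5-fold.

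The GLI genes encode the transcription factors at the end of the pathway, with GLI1 acting as an activator, GLI2 mainly as an activator and GLI3 mainly as a repressor. *GLI1* had a signal of 4.84 in si-*DRAIC*2 and 5.13 in si-NC. *GLI2* had 3.66 in si-*DRAIC*2 and 3.91 in si-NC. *GLI3* had 3.90 in si-*DRAIC*2 and 4.07 in si-NC. All 3 lay below the silent level, and their differences of −0.29, −0.25 and −0.18 stayed within 1.5-fold. The mean signal of *GLI2* was near the middle of the presumed silent genes, 233 of which were lower, and that of *GLI1* was higher than 425 of them.

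Over the 9 members, 2 were higher (*SMO* and *HHIP*) and 1 was lower (*IHH*) by more than 1.5-fold, and 6 were within it. Over all transcript clusters, 11.4% passed 1.5-fold, 5.13% higher and 6.26% lower. Above the silent level the share was 9.24% (3.94% higher and 5.30% lower), and at or below it 14.2%. Since the members were chosen with earlier results of these data known, among them the difference of *IHH*, nothing is read from their count. The median difference of the 9 members was −0.25, against −0.011 over all clusters, and 7 of the 9 differences were negative, 5 of them in genes below the silent level. Over all clusters, negative differences were about as frequent as positive ones. For the same reason, nothing is read from this median or this count. With 32 added to both linear signals the median of the 9 was −0.077.

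**Figure D2:**
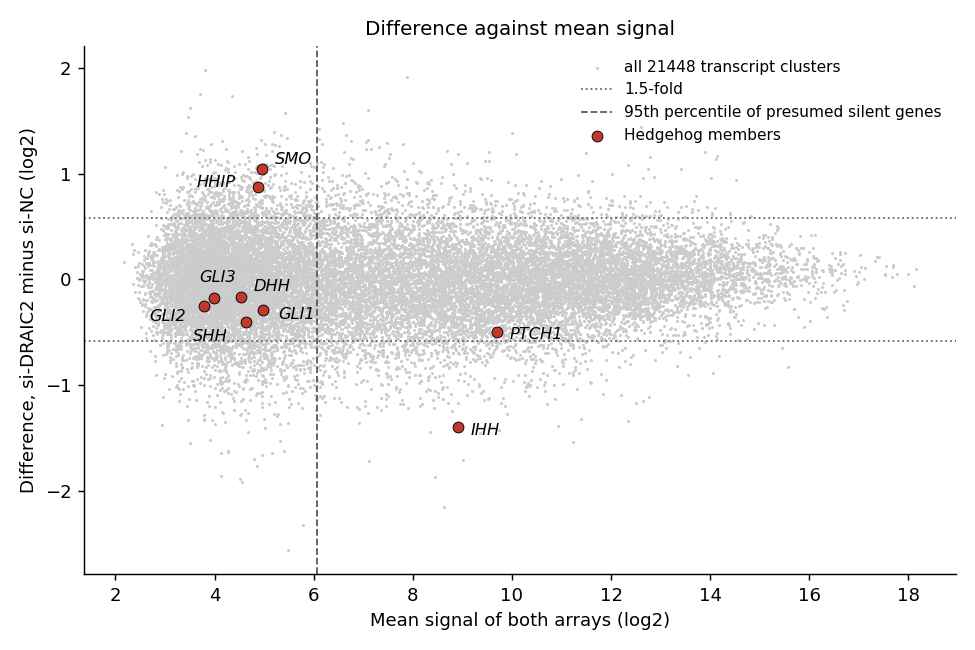
Difference, si-DRAIC2 minus si-NC (log2), against the mean signal of both arrays (log2) for all 21448 transcript clusters (grey) and the 9 Hedgehog genes (red), with dotted lines at 1.5-fold and a dashed line at the 95th percentile of presumed silent genes. *IHH* at −1.40 lies at the lower edge of the clusters of its signal, *PTCH1* at −0.49 within the dotted lines, and *SMO* and *HHIP* above the upper dotted line in the dim part of the plot.

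Whether other genes of the pathway differed was examined in lists by role, written with earlier results of these data known. Of 97 listed genes, 88 were measured, of which 63 lay above the silent level. Of the 88, 7 were higher and 8 lower by more than 1.5-fold (17.0%), with a median difference of −0.036. Of the 63 above the silent level, 3 were higher and 7 lower (15.9%), with a median of −0.071, beside 9.24% of all clusters above that level. The numbers are small, and a share of this kind has no error with 1 array per condition. Because earlier results were known when the lists were written, selection could have raised these shares. Nothing is read from them, nor from the shares of the single roles below.

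Genes for the making and release of the ligand stayed within 1.5-fold where their mean signal lay above the silent level. *HHAT*, the enzyme that attaches palmitate to the ligand, had 7.01 in si-*DRAIC*2 and 6.85 in si-NC. *DISP1*, the transporter that releases the lipid-modified ligand, had 9.49 in si-*DRAIC*2 and 9.58 in si-NC. Its relative *DISP2* lay close to the silent level, with 6.14 in si-*DRAIC*2 and 6.04 in si-NC, the latter just below that level. Of the 7 genes of this group, *SCUBE1*, of a family of secreted proteins that help release the ligand, was higher (0.92), with a signal below the silent level on both arrays (4.60 in si-*DRAIC*2 and 3.68 in si-NC). Among 8 measured co-receptor genes, none of the 4 above the silent level passed 1.5-fold, beside 9.24% of all clusters above that level. With so few genes, the absence of calls is no result about the co-receptor or the ligand release genes. *CDON*, a ligand-binding co-receptor, had a difference of −0.12, and the glypican genes *GPC3*, *GPC4* and *GPC6*, which encode cell surface proteoglycans, had 0.10, −0.30 and 0.55. *GAS1*, another co-receptor, was lower (−0.78) at a signal below the silent level, 4.20 in si-*DRAIC*2 and 4.98 in si-NC.

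Of 15 measured genes of signal transduction, which act on SMO itself or on the steps from SMO to GLI, 13 lay above the silent level. Of these 13, 4 were lower and none was higher, beside 5.30% lower and 3.94% higher among all clusters above that level, and 2 of the 4 (*GRK2* and *STK36*) did not stay past 1.5-fold in every setting. *MOSMO* had the largest difference of them, with 8.12 in si-*DRAIC*2 and 9.28 in si-NC, a difference of −1.17 or 2.25-fold lower. *MGRN1* had 11.21 in si-*DRAIC*2 and 11.97 in si-NC, a difference of −0.76. In mouse cells, MOSMO and the ubiquitin ligase MGRN1 act together to lower the amount of SMO at the cell surface. *GRK2*, a kinase that promotes SMO signaling, had 7.04 in si-*DRAIC*2 and 7.70 in si-NC (−0.67), and −0.56 with 32 added to the linear signals. *STK36*, the human homolog of the *Drosophila* Hedgehog kinase Fused, had 7.79 in si-*DRAIC*2 and 8.39 in si-NC (−0.60), and did not pass in 3 of 4 other settings (−0.56, −0.56 and −0.54). *SUFU*, the main inhibitor that holds GLI proteins in the cytoplasm, had 8.65 in si-*DRAIC*2 and 8.60 in si-NC, and the kinesin gene *KIF7*, which organizes the tip of the cilium, 7.17 in si-*DRAIC*2 and 6.79 in si-NC. Neither passed 1.5-fold. Among the 3 with the highest signal, *MGRN1* was lower, and *ARRB1* (0.054), a beta-arrestin gene, and *DYRK2* (0.16), a kinase of GLI proteins, were within 1.5-fold. *EVC2*, of a ciliary complex that binds SMO, was nominally higher (0.60) at a signal below the silent level, with 3.80 in si-*DRAIC*2 and 3.19 in si-NC.

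All 19 measured genes of the kinases and ubiquitin ligases that act on GLI proteins lay above the silent level. Of these, 2 were higher and none lower. Their share of 10.5% is close to the 9.24% of all clusters above that level and is no result about the group. Both encode adaptors of the cullin 3 ubiquitin ligase. *SPOP*, which directs GLI2 and GLI3 to degradation, had 10.58 in si-*DRAIC*2 and 9.89 in si-NC (0.69, or 1.62-fold higher). Its paralog *SPOPL* had 12.39 in si-*DRAIC*2 and 11.65 in si-NC (0.74, or 1.67-fold higher). *CUL3* itself had a difference of 0.13. *BTRC*, the adaptor of the SCF ligase that leads to processing of phosphorylated GLI3, had 9.94 in si-*DRAIC*2 and 10.52 in si-NC (−0.58), just inside the threshold. The kinase genes *PRKACA* (−0.012), *GSK3B* (0.13) and *CSNK1A1* (0.054), whose products phosphorylate GLI proteins, and the SCF subunit gene *SKP1* (0.075) hardly differed between the arrays.

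Of 15 measured cilium genes, 12 lay above the silent level and 1 of these was lower (8.33%, beside 9.24% of all clusters above that level). *TTC21B*, a subunit of the retrograde transport complex IFT-A, had 9.17 in si-*DRAIC*2 and 10.10 in si-NC (−0.94, or 1.91-fold lower). *TULP3*, which brings receptors into the cilium, had 13.35 in si-*DRAIC*2 and 13.47 in si-NC. The motor gene *KIF3B* (−0.13) and the transition zone gene *RPGRIP1L* (−0.071) also stayed within 1.5-fold. *IFT88*, a subunit of IFT-B, was nominally higher (1.01) at 5.95 in si-*DRAIC*2 and 4.94 in si-NC, below the silent level on both arrays.

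The target list holds genes described as Hedgehog responses in 1 tissue or another, many of which also answer to other pathways. Of 24 measured, 12 lay above the silent level, of which 2 were lower and 1 was higher (25.0%, beside 9.24% of all clusters above that level). With 32 added to the linear signals, 2 of these 3 no longer passed 1.5-fold, *SNAI1* (−0.53) and *BMP4* (0.47). *PRDM1*, a transcriptional repressor gene whose induction by Hedgehog is known from zebrafish muscle, had 6.31 in si-*DRAIC*2 and 7.54 in si-NC (−1.23, or 2.35-fold lower). *SNAI1*, a repressor of *CDH1*, had 6.65 in si-*DRAIC*2 and 7.32 in si-NC (−0.67). *BMP4*, a ligand that gut mesenchyme makes in answer to Hedgehog, had 6.83 in si-*DRAIC*2 and 6.19 in si-NC (0.64), close to the silent level. The targets with the highest signal differed little. *MYCN* had 15.64 in si-*DRAIC*2 and 15.70 in si-NC, *FOXM1* 13.85 in si-*DRAIC*2 and 13.84 in si-NC, and *CFLAR*, an inhibitor of apoptosis, 12.03 in si-*DRAIC*2 and 12.29 in si-NC. *CCND1*, which encodes cyclin D1, had a difference of 0.024, and *FOXF1*, a mesenchymal target of epithelial Hedgehog, 0.020. *GREM1*, a BMP antagonist gene, was nominally higher (0.78) below the silent level, with 5.16 in si-*DRAIC*2 and 4.38 in si-NC.

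**Figure D3:**
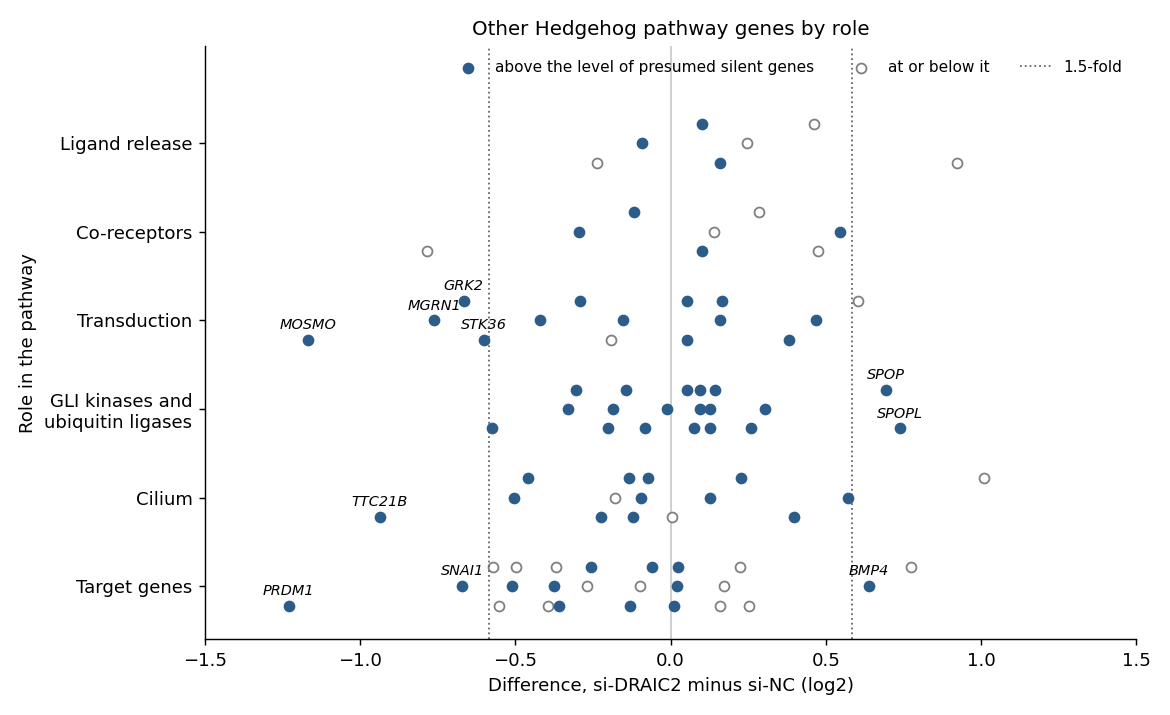
Difference, si-DRAIC2 minus si-NC (log2), of the 88 other Hedgehog pathway genes by role, with filled points for genes above the level of presumed silent genes, open points for those at or below it, and dotted lines at 1.5-fold. The named genes are the 10 filled points beyond the dotted lines, 7 on the lower side, with *PRDM1* at −1.23 and *MOSMO* at −1.17 farthest out, and 3 on the higher side.

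The genes beside *IHH* on chromosome 2 were compared with it, as a description of its surroundings. In the order of protein-coding genes in RefSeq (GRCh38.p14), *FEV*, *CRYBA2* and *CFAP65* precede it and *NHEJ1*, *SLC23A3* and *CNPPD1* follow. *NHEJ1*, a DNA end-joining gene next to *IHH*, had 11.14 in si-*DRAIC*2 and 11.17 in si-NC, a difference of −0.023. *CNPPD1* had 10.54 in si-*DRAIC*2 and 10.92 in si-NC (−0.38). The other 4 lay below the silent level. Of these, *CFAP65*, a gene of motile cilia and flagella, passed 1.5-fold, with 2.99 in si-*DRAIC*2 and 3.63 in si-NC (−0.64). The 2 neighbours with a clear signal were thus within 1.5-fold.

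With 2 arrays a pattern has only 2 values, and nearness to *IHH* was measured as the distance in the plane of both log2 signals. This distance depends on the signal level, which differs between probes, so genes with a like difference at another level are left out. A near gene is not thereby a gene that behaves like *IHH*. The 5 named genes nearest to *IHH* were *H3C2* (distance 0.16), *DNASE1L1* (0.27), *CCNE2* (0.30), *CDT1* (0.32) and *MOSMO* (0.34). *H3C2*, a replication-dependent histone gene with near-identical copies that its probes may not tell apart, had 8.32 in si-*DRAIC*2 and 9.49 in si-NC. *CCNE2*, which encodes cyclin E2, had 8.22 in si-*DRAIC*2 and 9.31 in si-NC, and *CDT1*, a DNA replication licensing gene, had 8.43 in si-*DRAIC*2 and 9.39 in si-NC. Of the 5, *DNASE1L1* had a larger difference than *IHH* (−1.71), and the other 4 had smaller ones.

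The differences of the 9 members were also computed under 4 other settings. No member changed direction in any of them, and *IHH* was at least 1.5-fold lower in each. The offset and the centring of the median could not have reversed a member. All 4 settings reuse the same arrays and do not measure the spread between arrays.

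**Figure D4:**
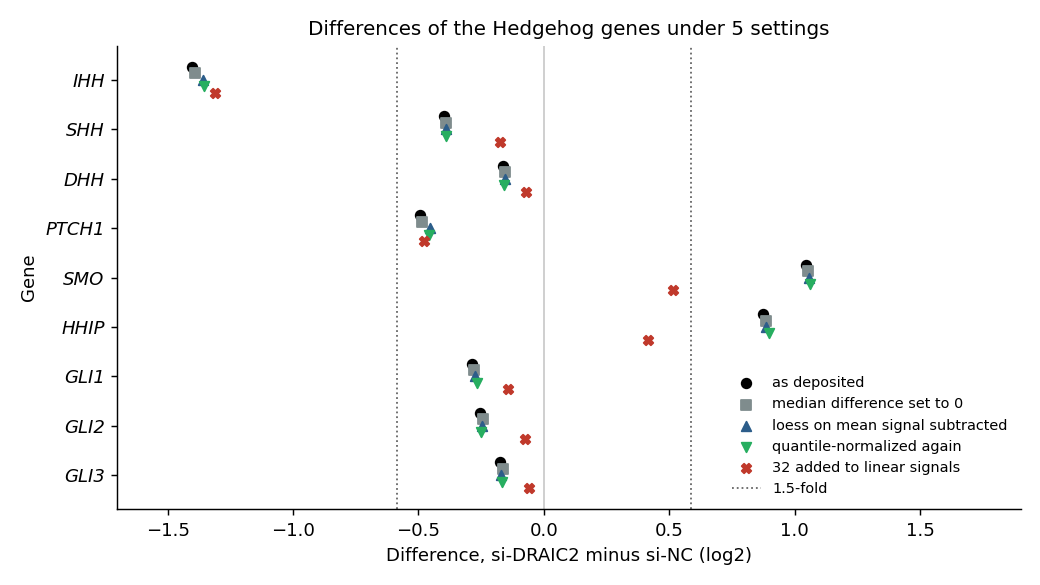
Difference, si-DRAIC2 minus si-NC (log2), of the 9 Hedgehog genes as deposited and under 4 other settings, with dotted lines at 1.5-fold. *IHH* stays between −1.40 and −1.31 and beyond the lower dotted line in all 5 settings, *PTCH1* stays between −0.49 and −0.46 and inside it, and *SMO* and *HHIP* move inside the upper dotted line with 32 added to the linear signals.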

How the data were processed

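Total RNA of VMRC-LCD cells (si-*DRAIC*2 and si-NC, 1 array each) was hybridized to Human Clariom S arrays. The deposited values are log2 signals that the authors made from CEL files by SST-RMA in the Transcriptome Analysis Console (background correction, quantile normalization, summarization of probes). RMA and the same software appear in the submitters' processing notes. For the software version, annotation build and filters, nothing is stated in the sources used here. A shift shared by all transcripts would not show after such normalization.

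Gene symbols came from the platform annotation, which paired 17709 of 21448 clusters with 1 symbol each and left 3739 unnamed. Each of the 9 members had 1 cluster. Clusters of 1 symbol were averaged on the log2 scale (*PRKAR1A* only among the pathway genes). Values were used as deposited. The threshold was a linear fold change of 1.5, as in the study's methods, and no test was made. Members, lists and alternatives were chosen with earlier results of these data known. All members were named, with the other pathway genes that passed 1.5-fold above the silent level, the 3 of each role with the highest signal, the 5 genes nearest to *IHH* and its neighbours. Further genes of the lists (*SUFU*, *KIF7*, *CDON*, *CUL3*, *BTRC*, *PRKACA*, *CCND1*, *FOXF1* and dim ones past 1.5-fold) were added after their values were seen. Promoter windows are from RefSeq (GRCh38.p14) and cover 7 of the 9 members. With 1 array per condition, precision is limited by the number of arrays. Counting and centring were tried on simulated data with planted differences well past the threshold and noise kept below it. This checks the calculation only, not how the counts behave at the spread of these data. Python 3.11.15, numpy 2.4.6, pandas 2.3.3, statsmodels 0.14.6 and matplotlib 3.10.9 were used.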

Additional observations from a re-analysis of the deposited data

How the results depend on the processing

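Of the 36 differences of the 9 members under 4 alternatives (the median difference set to 0, a loess on the mean signal with span 0.3 subtracted, the arrays quantile-normalized again, and 32 added to both linear signals), none changed direction and 34 kept their side of 1.5-fold. The exceptions were *SMO* and *HHIP* with 32 added (0.52 and 0.42). Adding 32 to both linear signals cannot reverse a sign, and the median shift of −0.011 was smaller in size than every member difference. Unchanged directions in these settings were thus fixed in advance. All 4 settings reuse the same arrays and do not measure the spread between arrays. *IHH* ranged from −1.39 to −1.31, and the median of the 9 from −0.25 to −0.077, the smaller size with 32 added. Of 2 higher members, 0 remained among clusters at or above the median signal, above the silent level or with 32 added, and 1 with a 2-fold threshold. The 1 lower member, *IHH*, passed in each of these. In the other pathway genes, 7 were higher and 8 lower. The counts were 9 higher and 7 lower after the loess and after the second quantile normalization, so that the larger count changed sides, 2 higher and 5 lower at or above the median signal, 3 higher above the silent level, 1 higher and 2 lower at 2-fold, and 2 higher and 4 lower with 32 added. Over all clusters, 1100 were higher and 1343 lower, against 376 and 521 at or above the median signal, 481 and 648 above the silent level, 131 and 213 at 2-fold, and 373 and 521 with 32 added. The excess of lower calls was small after the loess (1205 higher, 1233 lower) and absent after the second quantile normalization (1225 higher, 1216 lower). The 10 other pathway genes named for passing 1.5-fold were tried under the same 4 alternatives after the data were seen, and 34 of 40 values stayed past it. *STK36* did not after the loess (−0.56), the second quantile normalization (−0.56) or the offset (−0.54), and *GRK2* (−0.56), *SNAI1* (−0.53) and *BMP4* (0.47) did not with the offset. Each member has 1 cluster, so that values per cluster gave nothing further. No paired analysis was possible because each condition has 1 array, and no replicate could be left out. Dim signals limit 7 of the 9 members, which lay within the range of genes presumed silent.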
